A study of Homo sapiens with 136 samples.

Results

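Sorafenib, a multikinase inhibitor that binds RAF kinases and several receptor tyrosine kinases, was tested in AsPC-1, a human pancreatic ductal adenocarcinoma cell line. The libraries described here are the 4 AsPC-1 libraries whose titles name sorafenib, out of 68 AsPC-1 libraries, which are the AsPC-1 arm of a series with the same layout in PANC-1. In 2 of them the cells also received hydroxychloroquine, an antimalarial that blocks autophagy at the lysosome, and in the other 2 they received Compound 19, an inhibitor of the lipid kinase Vps34 that starts autophagosome formation. They were set against the 12 AsPC-1 libraries given an autophagy inhibitor alone, 6 with hydroxychloroquine and 6 with the Vps34 inhibitor. Each of the plates A and B held 1 sorafenib library and 3 alone libraries for each autophagy inhibitor, and these are called matched below. Further comparisons used 16 AsPC-1 libraries of 4 other RAF inhibitors (Dabrafenib, RAF709, PLX8394 and GDC0879), 20 of 5 MEK inhibitors (Trametinib, Cobimetinib, Binimetinib, Selumetinib and the compound labelled Refamatinib), 16 of 4 ERK inhibitors (SCH772984, Ulixertinib, AZD0364 and Ravoxertinib), which entered the fit and a figure but no test, and 4 sorafenib and 12 alone libraries of PANC-1, another pancreatic cancer line. All these cells were cultured for 24 h and then treated for 24 h, and every group carried 1 of the autophagy inhibitors. Each drug was used at the concentration that, given by itself, left 80% viability after 48 h. The labels do not give the concentrations, so a difference between drugs cannot be told apart from a difference in dose. No untreated cells and no sorafenib without an autophagy inhibitor were used here, and the labels do not say whether libraries of a group came from separate cultures, so p-values measure the spread between these libraries, which may be technical.

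RAS proteins recruit RAF kinases, which phosphorylate MEK, which in turn phosphorylates ERK. Active ERK switches on genes for its own brakes, among them the DUSP phosphatases and the SPRY proteins, so their mRNAs are used to read the output of the pathway. In cells with active RAS, some RAF inhibitors bind a single partner of a RAF dimer and activate the other, which raises ERK output and is called paradoxical activation; sorafenib has been described as such an inhibitor in other cells. The question put to the data was whether the ERK target mRNAs rose with sorafenib and what else changed.

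RNA was read by PLATE-Seq, a pooled 3' method that barcodes the RNA of each well. The sorafenib libraries held 3350145 to 4537300 counts, and the alone libraries 2135931 to 5172291. Total counts, detected genes, and the shares of mitochondrial mRNA, ribosomal protein mRNA and the 10 largest genes did not pass a two-sided exact permutation test within plate and autophagy inhibitor (every assignment, Benjamini-Hochberg adjusted p = 0.8086 for each of the 5). Of 9 markers of ductal epithelium 8 had counts, and their summed level was 3407.7 to 4173.4 CPM (counts scaled to library size) with sorafenib, against 3328.3 to 4372.0 CPM alone. Fibroblast markers summed to 62.5 to 102 CPM with sorafenib, against 44.3 to 85.3 CPM alone. The immune markers PTPRC, CD3E, CD3D, MS4A1 and NKG7, the endothelial markers KDR, TEK and ERG, the acinar markers CPA1, PNLIP and AMY2A and the endocrine markers INS, GCG, SST and PPY were at 0 in all 16 libraries. The other markers of these types had counts. Immune markers, 4 of 9 with counts, summed to 4.41 to 6.77 CPM with sorafenib and 1.98 to 12.7 CPM alone. Endothelial markers (3 of 6 with counts) summed to at most 0.577 CPM with sorafenib and 1.97 CPM alone. Acinar markers (5 of 8) summed to at most 0 and 2.09 CPM, and endocrine markers (2 of 6) to at most 0.298 and 0.283 CPM.

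No tested ERK target passed the test with sorafenib relative to the autophagy inhibitors alone. Of the 10 genes of this list, 9 passed the filter on low counts and EPHA4 did not. With edgeR's quasi-likelihood test and a Benjamini-Hochberg adjusted p under 0.05 as the call, 0 of the 9 were called. Over all 12761 genes tested, 13 (0.102%) were called and 917 had an unadjusted p under 0.05. DESeq2 also called 0 of the 9, and 1 of them, EPHA2, had an unadjusted p under 0.05 in edgeR. The list had 6 positive and 3 negative log2 fold changes with a median of 0.22, beside a median of -0.02 over all genes, and the median lay at 0.03 within plate A and 0.23 within plate B. In bulk libraries such as these, fewer cells that express a gene and less RNA per cell cannot be told apart.

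SPRY4 encodes a Sprouty protein that restrains signalling from receptor tyrosine kinases to ERK. With hydroxychloroquine and sorafenib it measured 87.75 and 256.2 CPM on plates A and B, against 89.1 to 190 CPM with hydroxychloroquine alone. With the Vps34 inhibitor and sorafenib it measured 96.3 and 143 CPM, against 62.1 to 142 CPM with the Vps34 inhibitor alone. The groups overlapped with hydroxychloroquine, where plate A lay at the low end and plate B above all 6, and the fitted difference over both autophagy inhibitors was 0.26 ± 0.16 on the log2 scale (SE; 95% interval -0.06 to 0.59; adjusted p = 0.7869).

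DUSP6, the cytoplasmic phosphatase that removes phosphate from ERK, measured 64.2 and 63.9 CPM with sorafenib and hydroxychloroquine, against 62.6 to 82.5 CPM with hydroxychloroquine alone. With sorafenib and the Vps34 inhibitor it measured 70.4 and 92.6 CPM, against 46.78 to 89.99 CPM with the Vps34 inhibitor alone. The groups overlapped, and the fitted log2 difference was 0.04 ± 0.21 (95% interval -0.38 to 0.46). PHLDA1, a pleckstrin-homology protein induced by growth factor signalling, measured 299, 317, 228 and 252 CPM in the 4 sorafenib libraries, against 288 to 349 CPM with hydroxychloroquine alone and 205 to 317 CPM with the Vps34 inhibitor alone. All 4 values lay inside the ranges of the alone libraries, with a log2 difference of -0.04 ± 0.11 (95% interval -0.26 to 0.17). The log2 differences of the nuclear phosphatase DUSP4 and of CCND1, the G1 cyclin D1, were -0.07 ± 0.11 and -0.11 ± 0.17.

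EPHA2, an ephrin receptor tyrosine kinase whose transcription depends on ERK, stood nearest to the threshold. It measured 106 and 140 CPM with sorafenib and hydroxychloroquine, against 68.6 to 106 CPM with hydroxychloroquine alone. With sorafenib and the Vps34 inhibitor it measured 67.1 and 104 CPM, against 45.5 to 76.1 CPM with the Vps34 inhibitor alone. In 3 of the 4 sorafenib libraries it lay above every matched alone library, and the log2 difference was 0.59 ± 0.19 (95% interval 0.21 to 0.96; adjusted p = 0.377, and 0.1676 to 0.9999 over the alternatives). Within plate A the log2 difference of EPHA2 was 0.31 and within plate B it was 0.77, neither of them called. SPRY2, the relative of SPRY4, had a log2 difference of 0.63 ± 0.32 (adjusted p = 0.703), and the ETS factors ETV4 and ETV5, which ERK signalling induces, had 0.22 ± 0.44 and 0.33 ± 0.29. For SPRY2, ETV4 and EPHA2 the upper ends of the 95% intervals were 1.27, 1.10 and 0.96, so a log2 rise of 1 lay inside the intervals of SPRY2 and ETV4 at this number of libraries.

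**Figure D1:**
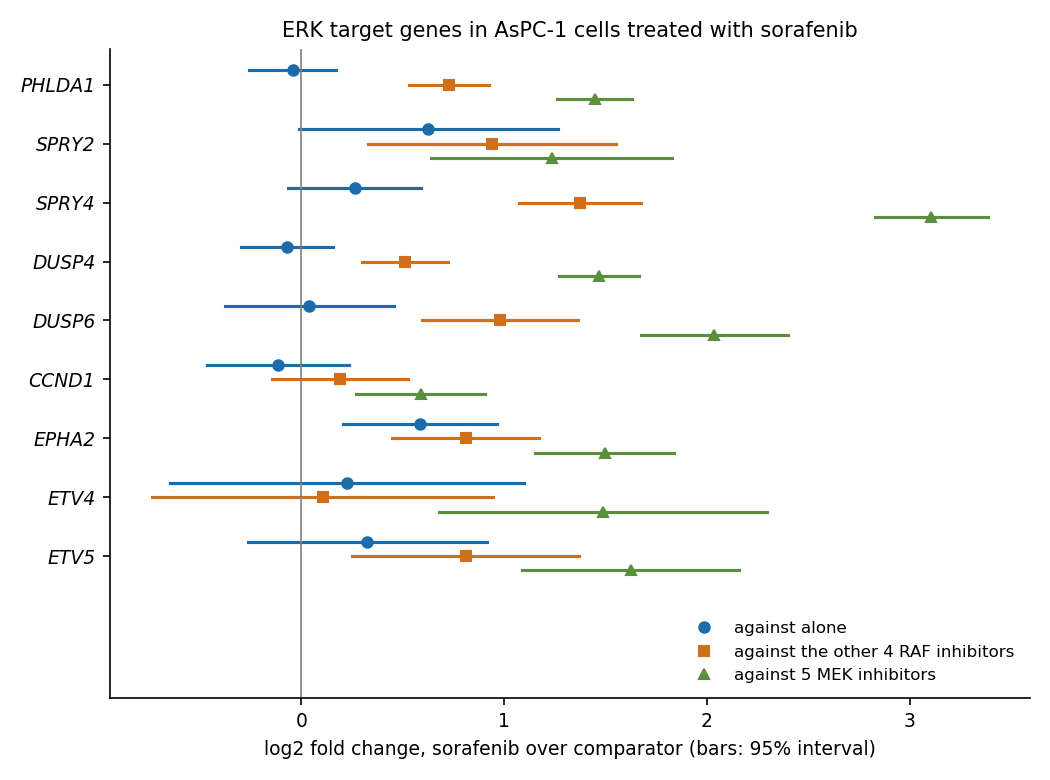
Log2 fold change of the 9 tested ERK targets in AsPC-1 with sorafenib, against the autophagy inhibitors alone, the other RAF inhibitors and the MEK inhibitors; points are edgeR estimates and bars are 95% intervals. The points against alone lie around 0, from -0.11 to 0.63, while those against the MEK inhibitors lie between 0.59 and 3.11.

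Within each autophagy inhibitor the picture was the same in calls and differed in medians. With hydroxychloroquine the 9 ERK targets had 4 positive and 5 negative log2 fold changes with a median of -0.05 and 0 were called, where 24 of all genes (0.188%) were. With the Vps34 inhibitor 8 were positive and 1 negative with a median of 0.24, and 0 were called, where 13 of all genes (0.102%) were. The test of the difference between the autophagy inhibitors called 0 ERK targets and 3 genes (0.0235%) in all. Of 11 tested members of a second list of ERK feedback genes and of 16 RAS, RAF, MEK and ERK genes, 0 were called with both autophagy inhibitors together or with either alone.

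Immediate early genes, which growth factors and stress induce without new protein synthesis, showed 1 call among 30 tested, with hydroxychloroquine. JUNB, an AP-1 subunit, measured 92.4 and 107 CPM with sorafenib and hydroxychloroquine, against 36.1 to 64.0 CPM with hydroxychloroquine alone. Both sorafenib libraries lay above all 6 alone libraries, and JUNB rose by 1.11 ± 0.25 on the log2 scale (edgeR adjusted p = 0.023). With the Vps34 inhibitor JUNB measured 36.3 and 51.1 CPM with sorafenib, against 26.9 to 58.0 CPM without it, which overlap. The test of the difference between the autophagy inhibitors gave -0.79 ± 0.37 for JUNB (adjusted p = 0.8663). The AP-1 subunit FOSB and the zinc finger factor EGR1, chosen after their values were seen, measured 49.9 and 40.1 CPM and 55.9 and 57.6 CPM with sorafenib and hydroxychloroquine, against 4.45 to 19.2 CPM and 18.2 to 34.5 CPM with hydroxychloroquine alone. For both genes the groups did not overlap, but neither gene passed the test (log2 difference 2.05 ± 0.52 for FOSB, adjusted p = 0.0896, and 0.97 ± 0.39 for EGR1, adjusted p = 0.4948). With sorafenib and the Vps34 inhibitor, FOSB was 0.347 and 0.705 times the mean of its matched alone libraries. EGR1 was 0.793 and 1.84 times that mean. FOSL1, a further AP-1 subunit, lay below the mean of its matched alone libraries in all 4 sorafenib libraries and was not called. It was 0.785 and 0.768 times that mean with hydroxychloroquine and 0.919 and 0.874 times with the Vps34 inhibitor. With hydroxychloroquine the 30 genes had 18 positive and 12 negative log2 fold changes (median 0.09). With the Vps34 inhibitor 14 were positive and 16 negative (median -0.10).

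What did change with sorafenib was a small set of 13 genes, 11 higher and 2 lower, with 2 genes of lipid synthesis among them. SCD, the desaturase that turns saturated fatty acids into monounsaturated ones (GRCh38 10:100347124-100364834, plus strand), had the smallest adjusted p among the genes that did not rest on 1 library. SCD measured 361 and 492 CPM with sorafenib and hydroxychloroquine, against 171 to 261 CPM with hydroxychloroquine alone. With sorafenib and the Vps34 inhibitor it measured 279 and 232 CPM, against 111 to 200 CPM with the Vps34 inhibitor alone. The groups did not overlap with either autophagy inhibitor: against the mean of the 3 matched alone libraries SCD was 1.52 and 2.80 times as high with hydroxychloroquine on plates A and B, and 1.54 and 1.69 times as high with the Vps34 inhibitor. SCD rose by 0.89 ± 0.12 on the log2 scale (edgeR adjusted p = 2.069e-06). The log2 difference of SCD was 0.61 within plate A, where it was not called (adjusted p = 0.4865), and 1.17 within plate B (adjusted p = 0.0002963). It stayed called with each sorafenib library left out in turn, at an adjusted p of 0.02402 without the plate B hydroxychloroquine library.

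MSMO1, the methylsterol oxidase of cholesterol synthesis (GRCh38 4:165327623-165343160, plus strand), measured 243 and 330 CPM with sorafenib and hydroxychloroquine, against 128 to 250 CPM with hydroxychloroquine alone. With sorafenib and the Vps34 inhibitor it measured 156 and 157 CPM, against 114 to 139 CPM with the Vps34 inhibitor alone. Each sorafenib library lay above its 3 matched alone libraries, although the hydroxychloroquine groups overlapped across plates, and MSMO1 rose by 0.52 ± 0.11 on the log2 scale (adjusted p = 0.0205). The log2 difference of MSMO1 was 0.58 within plate A and 0.47 within plate B, neither of them called (adjusted p = 0.6759 and 0.7260). The MSMO1 call was also lost without the plate A Vps34 inhibitor library (adjusted p = 0.1676) and without the plate B hydroxychloroquine library (adjusted p = 0.3529).

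The promoters of SCD and MSMO1 are shown because these are the genes of lipid synthesis that were called. They are RefSeq sequences of GRCh38.p14 from 250 bases before to 50 bases after the start, both on the plus strand, at chr10:100346983-100347282 for SCD and chr4:165327419-165327718 for MSMO1. Capitals mark CCAAT, the letters that NF-Y binds, or its reverse complement ATTGG.
SCD: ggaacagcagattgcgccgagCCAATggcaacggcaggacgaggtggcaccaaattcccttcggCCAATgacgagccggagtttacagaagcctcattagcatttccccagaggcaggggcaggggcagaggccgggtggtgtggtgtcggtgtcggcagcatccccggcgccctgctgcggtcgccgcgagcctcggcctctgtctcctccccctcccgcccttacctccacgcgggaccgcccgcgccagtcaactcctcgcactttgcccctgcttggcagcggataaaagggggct
MSMO1: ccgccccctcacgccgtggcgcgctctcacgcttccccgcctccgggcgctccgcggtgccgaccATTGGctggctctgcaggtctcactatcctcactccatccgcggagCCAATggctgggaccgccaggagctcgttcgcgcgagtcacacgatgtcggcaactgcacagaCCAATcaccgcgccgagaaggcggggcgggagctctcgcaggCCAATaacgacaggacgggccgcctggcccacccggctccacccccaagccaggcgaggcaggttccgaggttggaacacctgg
CCAAT was found, on either strand, 2 times in the SCD window and 4 times in the MSMO1 window, in 22 of 35 windows (62.9%) of 24 lipid synthesis genes with a RefSeq entry, and in 34.6% of all 35116 windows of this length. The search for CCAAT was added after the data were seen. The letters TGATGNAA, TGANTCA, CCGGAAGT, TGACNNNGC and TCACCCCAC, for the ATF4 and C/EBP element, AP-1, ETS, the antioxidant response element and the sterol regulatory element, were not in either window, and were found in 3.62%, 7.71%, 4.14%, 13.3% and 0.43% of all windows. A match describes letters in a window and says nothing of binding.

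Across the 32 genes of the lipid synthesis list, all of them tested, SCD and MSMO1 were the called members (2 of 32, against 0.102% of all genes), 28 had a positive log2 fold change and the median was 0.35. Of the 32, 12 had an unadjusted p under 0.05, against 917 of 12761 genes (7.19%). The members not called ran from the sterol enzyme MVK at -1.30 ± 0.73 to the sterol carrier STARD4 at 0.66 ± 0.32. Between these lay IDI1, an isomerase of the mevalonate pathway, at 0.58 ± 0.16 (adjusted p = 0.2175) and the fatty acid elongase ELOVL6 at 0.66 ± 0.23. Counted library by library, 19 of the 32 genes (59.4%) lay above all 3 matched alone libraries with sorafenib and hydroxychloroquine on plate A and 16 on plate B, and 17 (53.1%) and 18 (56.2%) did so with the Vps34 inhibitor. Among all genes tested the corresponding shares were 27.2%, 28.3%, 24.5% and 24.9%, and among the 9 ERK targets the counts were 2, 4, 2 and 7. The median of the lipid list was 0.34 within plate A and 0.37 within plate B, and 0.30 with hydroxychloroquine, where SCD and MSMO1 were called, and 0.29 with the Vps34 inhibitor, where 0 were.

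**Figure D2:**
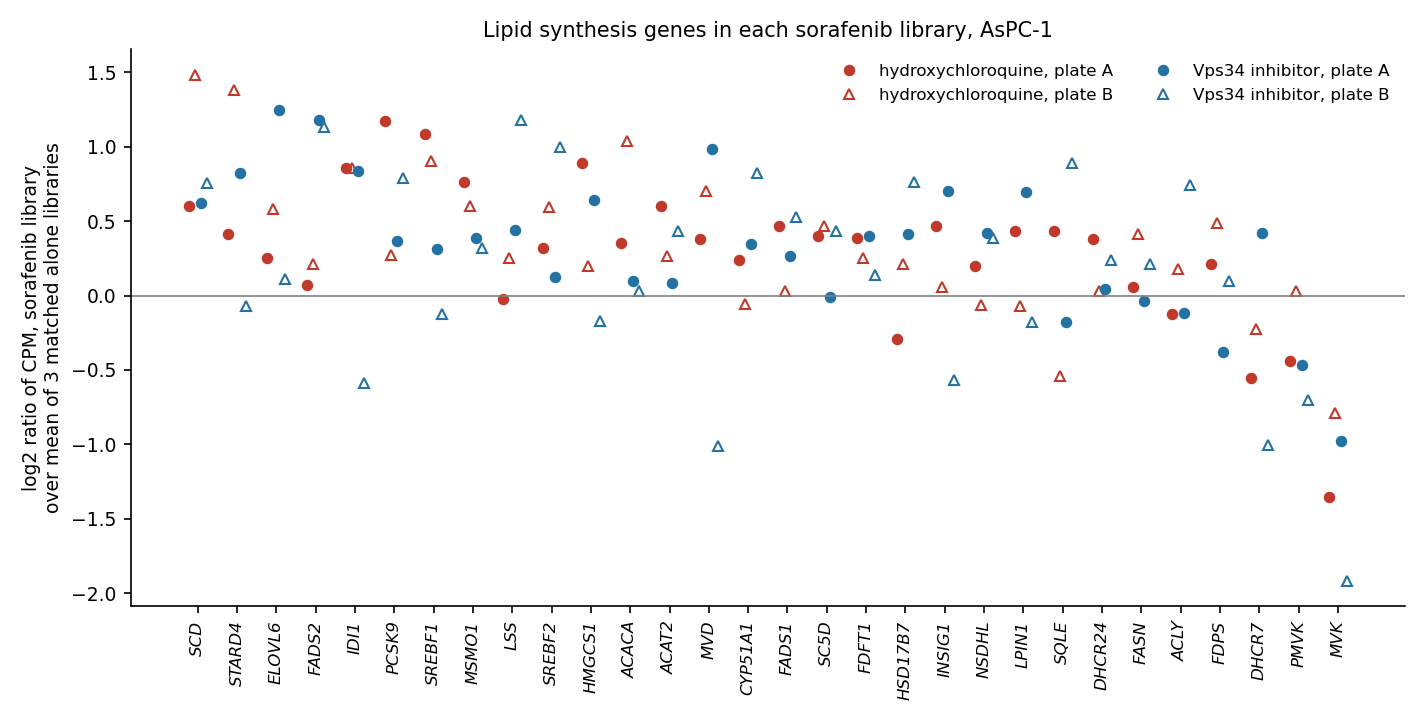
Log2 ratio of CPM in each of the 4 AsPC-1 sorafenib libraries over the mean of its 3 matched alone libraries (vertical axis) for 30 of the lipid synthesis genes, 1 point per library, in order of the fitted log2 fold change. The points of SCD, ratios of 1.52 to 2.80, and of MSMO1, ratios of 1.25 to 1.70, all lie above the line of equal levels, and many other genes have points on both sides of it.

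The other called genes belong to no common list. MPG, the glycosylase that removes alkylated bases from DNA, measured 53.7, 49.4, 34.4 and 58.3 CPM in the 4 sorafenib libraries (hydroxychloroquine plates A and B, then Vps34 inhibitor plates A and B), against 21.4 to 47.7 CPM with hydroxychloroquine alone and 21.1 to 33.6 CPM with the Vps34 inhibitor alone. All 4 lay above their own alone ranges, and MPG rose by 0.75 ± 0.17 on the log2 scale (adjusted p = 0.0449). The call of MPG was lost in 19 of 23 alternatives and with each of the 4 sorafenib libraries left out in turn (adjusted p = 0.07572 to 0.5917). CCL15, a chemokine, measured 15.9, 12.5, 22.8 and 26.4 CPM in the same order, against 4.33 to 9.71 CPM and 5.81 to 23.4 CPM alone. It lay above its matched alone libraries in all 4 and rose by 0.94 ± 0.21 (adjusted p = 0.0356). The CCL15 call was lost in 14 of 23 alternatives and also with each sorafenib library left out (adjusted p = 0.08416 to 0.4272). C12orf75 measured 120, 209, 93.8 and 95.2 CPM, against 80.9 to 115 CPM and 63.3 to 77.3 CPM alone, and rose by 0.56 ± 0.11 (adjusted p = 0.0076). It was not called without the plate B hydroxychloroquine library (adjusted p = 0.7584), without the plate A Vps34 inhibitor library (adjusted p = 0.08952) or within either plate. SCD, MSMO1, CCL15, MPG and C12orf75 were the called genes in which all 4 sorafenib libraries lay above their matched alone libraries. Of all tested genes, called or not, 77 (0.603%) lay above in all 4 and 69 (0.541%) lay below in all 4.

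ERO1A, the oxidase that drives disulfide formation in the endoplasmic reticulum and a hypoxia-induced gene, measured 141 and 324 CPM with sorafenib and hydroxychloroquine, against 78.9 to 121 CPM with hydroxychloroquine alone. With sorafenib and the Vps34 inhibitor it measured 83.1 and 93.7 CPM, inside the 51.7 to 111 CPM of the Vps34 inhibitor alone. ERO1A rose by 0.78 ± 0.17 over both (adjusted p = 0.0449) and by 1.28 ± 0.24 with hydroxychloroquine (adjusted p = 0.004135), and the difference between the autophagy inhibitors did not pass (log2 difference -0.997 ± 0.359, adjusted p = 0.7573). The ERO1A call was kept in 6 of 23 alternatives, and without the plate B hydroxychloroquine library its log2 difference over both was 0.39. Of the 26 tested folding genes of the endoplasmic reticulum ERO1A was the only call over both autophagy inhibitors. QPRT, an enzyme of NAD synthesis, measured 183, 226, 179 and 180 CPM, against 131 to 206 CPM and 114 to 150 CPM alone, and rose by 0.38 ± 0.09 (adjusted p = 0.0403). The QPRT call was kept in 6 of 23 alternatives and in 1 of the 4 that leave out a sorafenib library, and the adjusted p was 0.9401 without the plate B hydroxychloroquine library.

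TENT5A and MYADM fell. TENT5A, a cytoplasmic poly(A) polymerase, measured 1.65, 1.51, 7.32 and 4.64 CPM with sorafenib, against 7.31 to 9.80 CPM with hydroxychloroquine alone and 7.08 to 9.47 CPM with the Vps34 inhibitor alone. It fell by 1.45 on the log2 scale (SE 0.28, adjusted p = 0.0076), and in 3 of the 4 sorafenib libraries it lay below all alone libraries. MYADM, a membrane protein of the myeloid differentiation marker family, measured 12.9, 15.8, 29.02 and 16.8 CPM with sorafenib, against 26.3 to 39.9 CPM and 22.3 to 43.7 CPM alone, and fell by 0.97 (SE 0.21, adjusted p = 0.0356). The Vps34 inhibitor library of plate A lay inside the alone range for both genes. Both calls were kept without that library (adjusted p = 0.03745 each) and lost with each of the other 3 sorafenib libraries left out in turn (adjusted p = 0.07509 to 0.1223 for TENT5A and 0.1787 to 0.5859 for MYADM).

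METTL16, BCL10, ELP2 and SCUBE1 were called higher on the strength of 1 library each. METTL16, an RNA methyltransferase, measured 13.4, 2683.0, 60.6 and 7.26 CPM with sorafenib, the second value from the plate B hydroxychloroquine library. BCL10, an adaptor in NF-kappaB signalling, measured 498 CPM in the plate A Vps34 inhibitor library and 18.4, 25.5 and 22.3 CPM in the other 3. ELP2, an Elongator subunit, measured 420 CPM in the plate B Vps34 inhibitor library and 34.1 to 48.1 CPM elsewhere. SCUBE1, a secreted EGF-domain protein, measured 317 CPM in the plate A Vps34 inhibitor library, 46.4 CPM in the plate B hydroxychloroquine library and 4.11 and 4.64 CPM in the other pair, against at most 30.2 CPM alone. Values of this kind occurred in all 4 sorafenib libraries: among the calls within 1 autophagy inhibitor were LIPG at 649 CPM and GNAQ at 895 CPM in the plate A hydroxychloroquine library, MAST4 at 580 CPM and MACC1 at 413 CPM in the plate B Vps34 inhibitor library and PDZD8 at 286 CPM in the plate A one. They were not confined to sorafenib. In the fit of both lines GNAQ reached 4519.3 CPM (median 59.2) and SLC7A11 385 CPM (median 12.4) in PANC-1 alone libraries. In AsPC-1 alone libraries PDZD8 reached 54.9 CPM (median 13.4). Without the plate B hydroxychloroquine library 1 gene, SCD, remained called against alone.

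**Figure D3:**
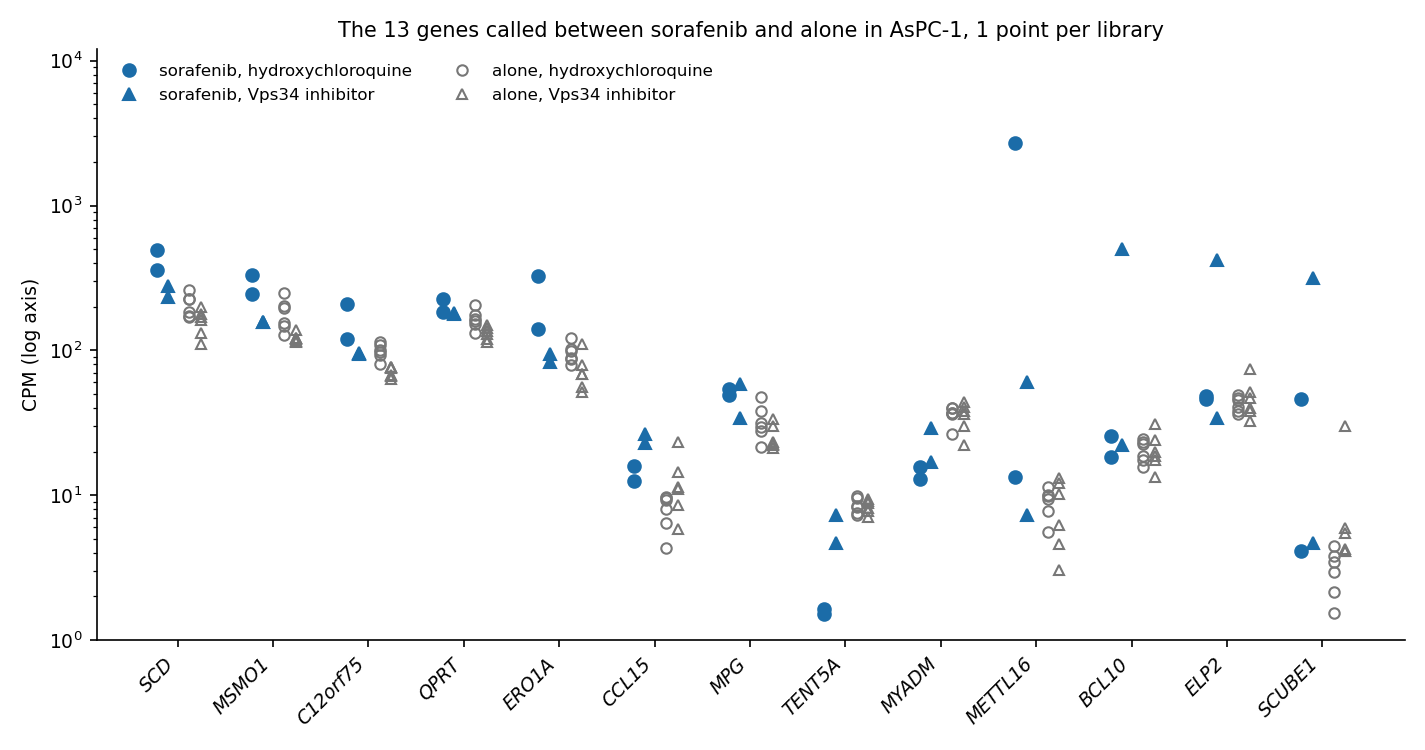
CPM on a log axis for the 13 genes called with sorafenib against the autophagy inhibitors alone in AsPC-1, 1 point per library, with sorafenib (filled) left of alone (open) for each gene. SCD values with sorafenib, 232 to 492 CPM, lie above the alone values of the same autophagy inhibitor, while METTL16 has 1 point at 2683.0 CPM.

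With hydroxychloroquine 19 genes rose and 5 fell. The largest falls of named genes were TENT5A, by 2.39 on the log2 scale (SE 0.42, adjusted p = 0.001932), and C12orf57, by 1.67 (SE 0.30, adjusted p = 0.002073). C12orf57 measured 7.13 and 4.75 CPM with sorafenib and hydroxychloroquine, against 12.8 to 25.3 CPM with hydroxychloroquine alone. With the Vps34 inhibitor it measured 30.1 and 33.1 CPM with sorafenib, against 21.6 to 28.2 CPM without it. The groups did not overlap in either case and stood in opposite order, and the difference between the autophagy inhibitors was 1.99 ± 0.39 (adjusted p = 0.02549). The call of this difference was lost without the plate B sorafenib library with hydroxychloroquine. Also lower with hydroxychloroquine were ARL2, a small GTPase of the tubulin-folding pathway, by 0.99 (adjusted p = 0.01938), EIF5A, the hypusine-bearing translation factor, by 0.58 (adjusted p = 0.03068), and MYADM, by 1.33 (adjusted p = 0.03897). On plates A and B, ARL2 was 0.521 and 0.484 times the mean of its matched alone libraries, and EIF5A 0.703 and 0.634 times. The calls of all 5 falls were lost without the plate B sorafenib library with hydroxychloroquine, which leaves 1 such library. SCD rose by 1.08 ± 0.16 (adjusted p = 8.126e-05) and MSMO1 by 0.68 ± 0.15 (adjusted p = 0.0212). With the Vps34 inhibitor SCD had a log2 difference of 0.69 ± 0.17 (adjusted p = 0.0953), and the difference between the autophagy inhibitors was -0.39 ± 0.24 (adjusted p = 0.92).

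Most gene groups had no called member against alone. This held for 46 ATF4 targets of the amino acid stress response (median log2 fold change -0.01), 29 NRF2 targets of the oxidative stress response (-0.07), 15 genes of ferroptosis and iron handling (-0.04), 51 lysosomal (0.01) and 34 autophagy genes (0.01), 44 G1/S (-0.11) and 51 G2/M genes (0.10), 18 p53 targets (0.17), 46 interferon response genes (0.01), 25 epithelial (0.06) and 17 mesenchymal genes (0.04), and 13 mRNAs of mitochondrial DNA (-0.04). DESeq2 called 23 genes in all, the same 13 among them. The 7 tested metallothioneins, which bind zinc, had a median of 0.40 with 0 called, and 0.62 with hydroxychloroquine, where MT1X, chosen after its values were seen, measured 21.4 and 30.9 CPM with sorafenib, against 8.35 to 17.4 CPM without it (adjusted p = 0.2184).

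None of the tested mRNAs of kinases that sorafenib binds was called, and several had no counts. KDR, FLT4, FLT3, RET and TEK, all receptor tyrosine kinases, had no counts in the 16 libraries. PDGFRA had 1 count with sorafenib and 1 alone, PDGFRB 0 and 2, and FLT1 14 and 13, and they were not tested. Of the 9 tested, 0 were called. Log2 differences among them were 0.24 for BRAF, 0.19 for ARAF, 0.66 for KIT, -0.22 for FGFR1, 0.04 for DDR1, -0.15 for MAPK14, -0.07 for MAP3K20 and 0.23 for EPHB4.

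Against the other 4 RAF inhibitors jointly, sorafenib left ERK target mRNAs higher. Of the 9, 5 were called higher and 0 lower, with a median log2 difference of 0.81, where 473 of all genes (3.71%) were called, 304 higher and 169 lower. SPRY4 had a median of 120 CPM with sorafenib (87.75 to 256.2), against 57.6 CPM over the 16 libraries of the other RAF inhibitors (20.3 to 238), and was higher by 1.38 ± 0.15 on the log2 scale (adjusted p = 7.788e-10). DUSP6 had a median of 67.3 CPM with sorafenib, against 34.3 CPM (11.7 to 74.0), and was higher by 0.98 ± 0.19 (adjusted p = 0.0005537). PHLDA1, DUSP4 and EPHA2 were higher by 0.73 ± 0.10, 0.51 ± 0.11 and 0.81 ± 0.18. Within plate A 2 and within plate B 3 of the 9 were called.

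The other RAF inhibitors did not stand together. In 4 separate comparisons, each adjusted over genes and not over the 4, sorafenib had 2 ERK targets higher than Dabrafenib (197 genes called, 1.54%), 6 higher than RAF709 (985 genes, 7.72%), 6 higher than GDC0879 (532 genes, 4.17%) and 0 higher or lower than PLX8394 (90 genes, 0.705%). SPRY4 was higher with sorafenib than with Dabrafenib by 1.28 ± 0.21, than with RAF709 by 2.52 ± 0.22 and than with GDC0879 by 1.62 ± 0.21. PLX8394, a compound designed not to cause paradoxical activation, had a median SPRY4 of 113 CPM (88.4 to 238), and the log2 difference of sorafenib to it was 0.08 ± 0.20 (95% interval -0.33 to 0.49). For DUSP6 that difference was 0.22 ± 0.26 (-0.29 to 0.74) and for PHLDA1 -0.09 ± 0.13 (-0.35 to 0.17), so a change of the size seen between sorafenib and RAF709 lay outside all 3 intervals. Set side by side with the same alone libraries, which these comparisons share, sorafenib had 0 of 9 ERK targets called lower (median log2 fold change 0.22), Dabrafenib 2 (median -0.21; 3.05% of all genes called), RAF709 7 (-1.14; 12.7%), PLX8394 0 (0.10; 0.76%) and GDC0879 5 (-0.85; 10.9%).

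**Figure D4:**
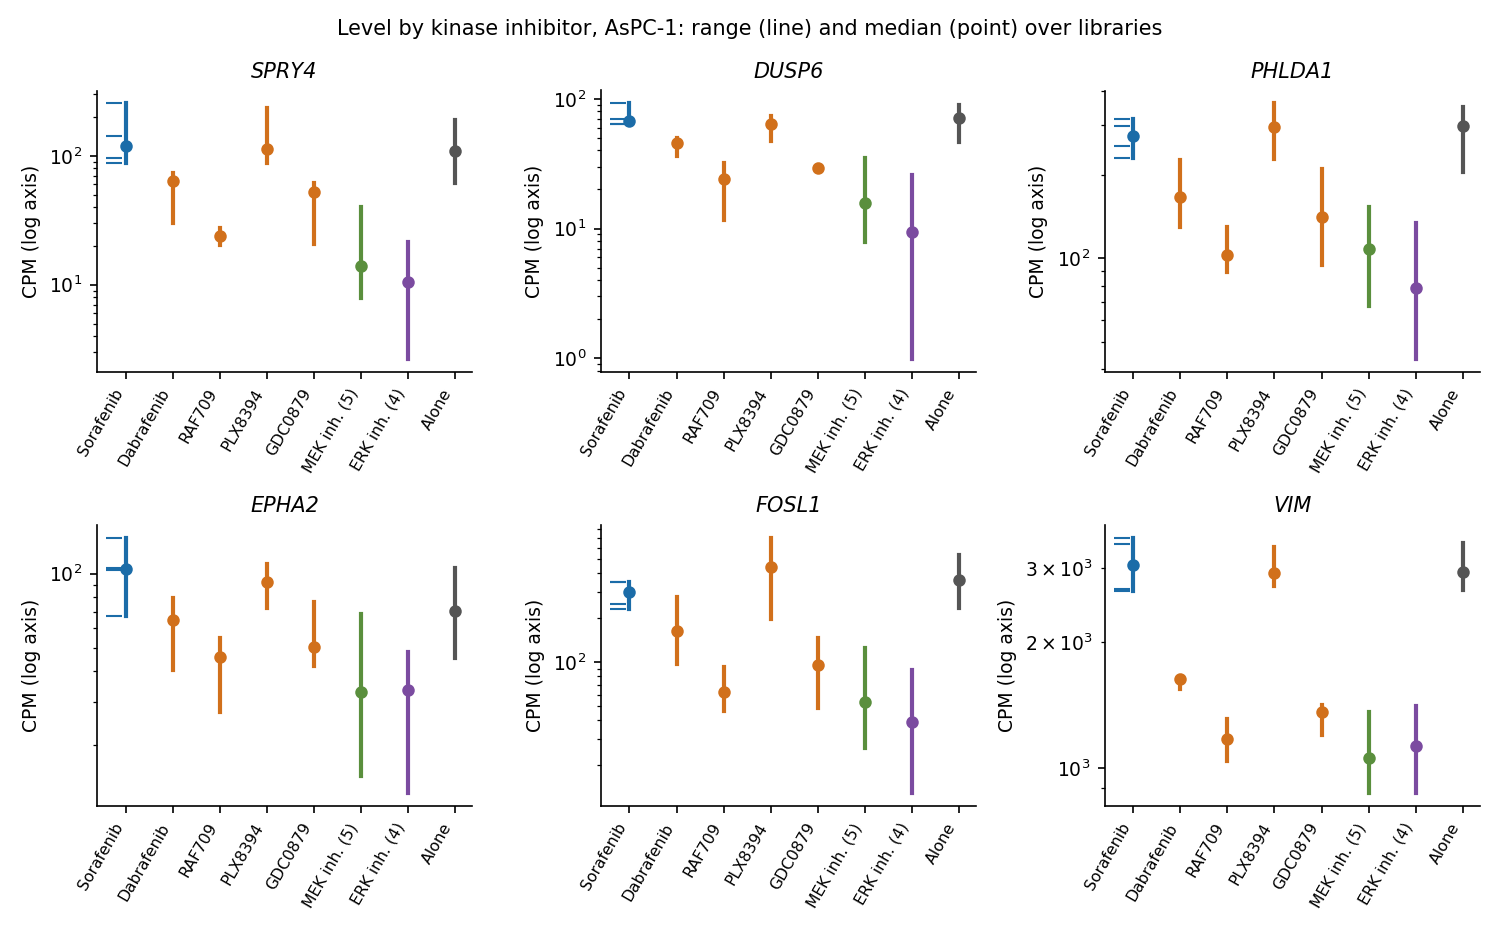
CPM on a log axis for SPRY4, DUSP6, PHLDA1, EPHA2, FOSL1 and VIM by kinase inhibitor in AsPC-1; vertical lines are ranges, points are medians over libraries, and short ticks are the 4 sorafenib libraries. SPRY4 medians lie at 120 CPM with sorafenib, 113 with PLX8394, 14.1 with the MEK inhibitors, 10.6 with the ERK inhibitors and 109 alone.

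Lipid synthesis genes separated sorafenib from PLX8394. Of the 32, 14 were higher with sorafenib and 0 lower, with a median log2 difference of 0.96, where 0.705% of all genes were called. MSMO1 had a median of 200 CPM with sorafenib (156 to 330), against 69.1 CPM with PLX8394 (56.3 to 88.3), which did not overlap, and was higher by 1.59 ± 0.14 (adjusted p = 2.294e-12). SCD had a median of 320 CPM with sorafenib (232 to 492), against 150 CPM with PLX8394 (113 to 162), and was higher by 1.20 ± 0.15 (adjusted p = 4.677e-07). IDI1 was higher by 1.65 ± 0.22. Against RAF709 and GDC0879, 0 of the 32 were higher and 1 and 0 were lower, and against Dabrafenib 3 were higher. Of all genes 7.72%, 4.17% and 1.54% were called against RAF709, GDC0879 and Dabrafenib. Relative to the shared alone libraries the median of the lipid list was 0.35 with sorafenib, -0.06 with Dabrafenib, 0.36 with RAF709, -0.64 with PLX8394, where 12 were called lower, and 0.27 with GDC0879. Of 46 ATF4 targets, 6 were lower with sorafenib than with PLX8394 and 0 higher (median log2 difference -0.48), and against Dabrafenib the counts were also 6 lower and 0 higher (median -0.56). Against the shared alone libraries 0 were called with sorafenib, while 11 were higher with PLX8394 and 10 with Dabrafenib. Of all genes 0.102%, 0.76% and 3.05% were called against alone with sorafenib, PLX8394 and Dabrafenib. ASNS, the asparagine synthetase, had a median of 44.3 CPM with sorafenib (21.7 to 68.8), against 187 CPM with PLX8394 (55.5 to 348), and was lower by 1.92 (SE 0.17, adjusted p = 2.294e-12). Against Dabrafenib, with a median of 168 CPM (75.3 to 289), ASNS was lower by 1.91 (SE 0.17, adjusted p = 2.829e-12). SLC7A11, the cystine transporter, was lower than with PLX8394 by 1.42 (SE 0.27, adjusted p = 0.002099). It also lay below the mean of its matched alone libraries in each sorafenib library, though it was not called against alone. The ratios to that mean were 0.632 and 0.444 with hydroxychloroquine and 0.837 and 0.506 with the Vps34 inhibitor.

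**Figure D5:**
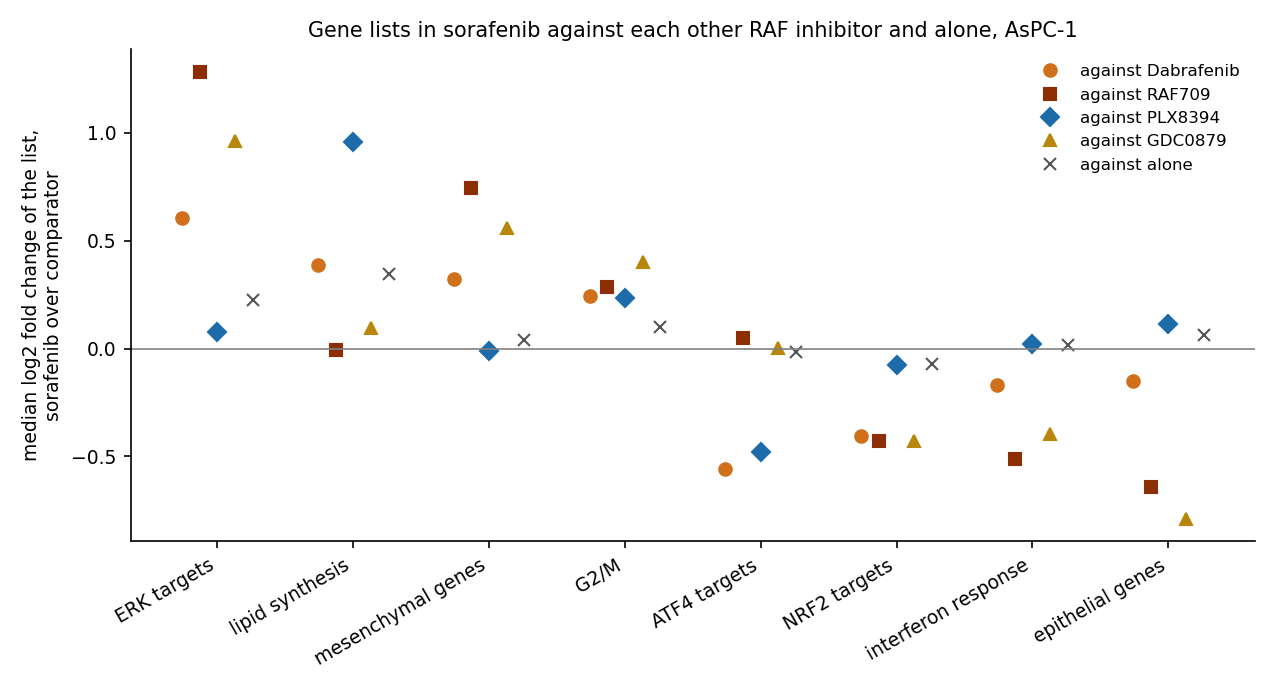
Median log2 fold change over the tested members of 8 gene lists in AsPC-1, sorafenib over Dabrafenib, RAF709, PLX8394, GDC0879 or the autophagy inhibitors alone, 1 symbol per comparator. For the ERK targets the median lies at 1.28 over RAF709 and 0.08 over PLX8394, and for lipid synthesis at -0.01 over RAF709 and 0.96 over PLX8394.

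Beyond these lists, genes with the smallest adjusted p against the other RAF inhibitors together included VIM, FERMT1, DCBLD2 and FOSL1 among the higher and AKR1C2, TRIM31, AKR1C3, FTH1 and MUC13 among the lower. VIM, the intermediate filament vimentin, had a median of 3048.8 CPM with sorafenib (2652.9 to 3548.3), against 1480.8 CPM with the other RAF inhibitors (1039.7 to 3376.0), and was higher by 0.88 ± 0.06 (adjusted p = 9.759e-17). With PLX8394 its median was 2914.0 CPM and alone 2932.0 CPM, and the log2 difference of VIM between sorafenib and alone was 0.03 ± 0.07. FERMT1, an integrin activator, was higher by 1.45 ± 0.11, DCBLD2, a membrane receptor, by 1.10 ± 0.10, and FOSL1, the ERK-stabilised AP-1 subunit, by 1.07 ± 0.11. AKR1C2, a hydroxysteroid dehydrogenase, had a median of 715 CPM with sorafenib (531 to 1095), against 2268.3 CPM (703 to 3950.5), and was lower by 1.44 (SE 0.09, adjusted p = 7.793e-20). AKR1C2 and AKR1C3, lower by 1.01, have near-identical relatives whose reads the counting could split, so their separate values are uncertain. TRIM31, a ubiquitin ligase, was lower by 1.51, FTH1, the ferritin heavy chain, by 0.61 and the mucin MUC13 by 0.95. Of 25 epithelial genes 8 were lower and 0 higher, among them the ETS factor ELF3, by 0.84, and AGR2, a disulfide isomerase, by 1.44. Of 17 mesenchymal genes 4 were higher and 0 lower, of 29 NRF2 targets 1 was higher and 10 lower, and of 51 G2/M genes 10 were higher and 0 lower. In this joint comparison 3.71% of all genes were called. Against PLX8394 singly, AKR1C2 was lower by 0.47 (adjusted p = 0.006848) while VIM, FERMT1, DCBLD2, FOSL1, AKR1C3, TRIM31, FTH1 and MUC13 were not called. There 0.705% of all genes were called, and no member of the epithelial or mesenchymal list was. Of the NRF2 targets 2 were lower, and of the G2/M genes 1 was higher.

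The distance to the MEK inhibitors, which block the next kinase down, was larger in number of calls. All 9 tested ERK targets were higher with sorafenib, with a median log2 difference of 1.49, where 1931 of all genes (15.1%) were called, 1094 higher and 837 lower. SPRY4 had a median of 14.1 CPM with the MEK inhibitors (7.89 to 40.3), below all 4 sorafenib libraries, and was higher with sorafenib by 3.11 ± 0.14 (adjusted p = 6.987e-27). DUSP6 was higher by 2.04 ± 0.18, DUSP4 by 1.47 ± 0.10, PHLDA1 by 1.45 ± 0.09 and EPHA2 by 1.497 ± 0.170. FOSL1 had a median of 299 CPM with sorafenib (228 to 351), against 53.2 CPM (26.0 to 124), and was higher by 2.45 ± 0.10. Within plate A 5 of the 9 ERK targets were called. Of 30 immediate early genes 12 were higher and 2 lower, of 17 mesenchymal genes 10 were higher and 0 lower, and of 25 epithelial genes 0 were higher and 17 lower. Of 51 G2/M genes 23 were higher, of 44 G1/S genes 14, and of 46 interferon response genes 24 were lower and 0 higher, with GBP1, an interferon-induced GTPase, lower by 3.13 (SE 0.49). Lipid synthesis had 2 higher and 4 lower, and INSIG1, which retains the sterol sensor SCAP in the endoplasmic reticulum, was lower by 1.29 (SE 0.23). MSMO1 was also lower with sorafenib than with the MEK inhibitors, by 0.32 (SE 0.11, adjusted p = 0.03214), while the log2 difference of SCD was 0.15 ± 0.11 (adjusted p = 0.4432).

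In PANC-1, sorafenib changed 13 of 13960 genes (0.0931%) against alone, 11 higher and 2 lower, and 0 of 10 tested ERK targets and 0 of 32 lipid synthesis genes were among them. The test of the difference between the lines, AsPC-1 minus PANC-1, called 5 genes (0.0358%), 2 higher and 3 lower, with 0 ERK targets and 0 lipid synthesis genes. In the fit of both lines SCD had a median of 359 CPM with sorafenib in AsPC-1 (259 to 552), against 198 CPM alone (124 to 292), and of 347 CPM with sorafenib in PANC-1 (250 to 440), against 301 CPM alone (190 to 372). With both autophagy inhibitors pooled those ranges overlap, and the difference of the log2 fold changes was 0.66 ± 0.17 (adjusted p = 0.192), with a log2 fold change of SCD in PANC-1 of 0.22 ± 0.12. The median of the lipid list was 0.08 in PANC-1, and the median difference between the lines was 0.22. For EPHB2, an ephrin receptor, the log2 fold change with sorafenib was lower in AsPC-1 than in PANC-1 (difference -1.29, edgeR adjusted p = 0.0412). In AsPC-1 with hydroxychloroquine EPHB2 was 0.274 and 0.271 times the mean of its matched alone libraries. With the Vps34 inhibitor it was 0.716 and 1.03 times that mean. The EPHB2 call was lost without the plate B sorafenib library with hydroxychloroquine of either line. It was also lost without the plate A AsPC-1 sorafenib library with the Vps34 inhibitor. The calls of BCL10, METTL16, RDH11 and NR6A1 rest on 1 library each.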

How the data were processed

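Gene counts were deposited by the authors as a table of 25435 gene symbols in all libraries of both lines; kallisto 0.44.0 and GRCh38 are named per the submitters' processing notes, the sources used here do not give their role, the filters or the strand setting. Kinase inhibitor, autophagy inhibitor and line come from the labels, and plate A or B from the library names. Counts were tested with edgeR 4.0.16 (R 4.3.3): TMM scaling, filterByExpr by treatment group, robust quasi-likelihood fit of the 68 AsPC-1 libraries with treatment group and plate as terms, and Benjamini-Hochberg adjustment over all 12761 genes tested, with calls at an adjusted p under 0.05. Libraries of all groups share an estimate of the spread because a sorafenib group has 2. The lines were compared in a fit of both over 13960 genes. CPM are TMM-scaled, so values of a gene differ slightly between the fits of 1 and of both lines, and levels of different genes are not compared. No 2 libraries of a group were identical, and log2 CPM of libraries within a group correlated at 0.92 to 0.95.

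The members and gene lists (32 lists, 738 of 826 genes tested) were chosen with earlier results of these data known. Named were all ERK targets, up to 3 called members per list, the largest rises and falls (up to 12 each way) among genes that were called, averaged at least 4 log2 CPM and whose 4 sorafenib libraries all lay beyond the matched alone libraries, all sorafenib kinase targets, and up to 5 called genes each way in other comparisons. That rule named 5 rises and no falls against alone; the remaining called genes are described because there were 13. Positions are from GENCODE release 29, which held 23870 of the symbols at 1 place, and promoters from RefSeq. The labels give no replicate numbers that pair libraries; the plate B minus plate A differences of sorafenib and alone libraries correlated at 0.05 with hydroxychloroquine and 0.09 with the Vps34 inhibitor over genes, and plate is a term of every fit except within plates. The alternatives were DESeq2 1.42.0, its size factors, no filter, no plate term, the 16 sorafenib and alone libraries only, each plate by itself, each library left out, and each other RAF inhibitor singly, the last added after the data were seen. The procedure was tested on simulated data before use. In the simulated test against alone it recovered 50 of 100 genes changed 1.5-fold and 93 of 100 changed 2-fold. Of 151 simulated calls 8 were false. The simulated spread was assumed and the changed genes were well counted, so recovery in the real libraries may differ. ERK inhibitor libraries entered the fit, and no test compares them with sorafenib here. Some genes of the lists are not reported here.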

Additional observations from a re-analysis of the deposited data

Results flagged for a closer look

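An outlying library was looked for in 81 groups of values and found in 8. The groups covered the 9 ERK targets, the 13 genes called against alone and the library measures. All flagged groups belong to called genes, some of them called on the strength of 1 library. The number of flags therefore cannot be set against a chance rate. Among the sorafenib libraries METTL16 stood out at 2683.0 CPM in the plate B hydroxychloroquine library (next 60.6), BCL10 at 498 CPM in the plate A Vps34 inhibitor library (next 25.5), SCUBE1 at 317 CPM in that library (next 46.4), ELP2 at 420 CPM in the plate B Vps34 inhibitor library (next 48.1) and QPRT at 226 CPM in the plate B hydroxychloroquine library (next 183). Among the alone libraries SCUBE1 stood out at 30.2 CPM (next 5.94) and MSMO1 at 139 CPM (next 123), each in a plate B library with the Vps34 inhibitor, and MYADM at the low end with 26.3 CPM (next 36.2) in a plate B library with hydroxychloroquine.

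The sorafenib effect differed between the autophagy inhibitors, Vps34 inhibitor minus hydroxychloroquine, by 1.99 on the log2 scale for C12orf57, 8.95 for MAST4 and 2.20 for PPIP5K2, each at an edgeR adjusted p of 0.02549. C12orf57 differed in all 4 sorafenib libraries, while MAST4 rests on 580 CPM and PPIP5K2 on 89.6 CPM in 1 library each. The calls of all 3 genes were lost without the plate B sorafenib library with hydroxychloroquine. Between the lines, AsPC-1 minus PANC-1, the sorafenib effect differed by 2.37 for BCL10, 5.05 for METTL16, -1.73 for RDH11, -3.02 for NR6A1 and -1.29 for EPHB2. RDH11 reached 844 CPM and NR6A1 1084.3 CPM in 1 PANC-1 sorafenib library each. The part of library quality in these values was not tested.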

How the results depend on the processing

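The 13 calls against alone became 23 with DESeq2, 8 within plate A (9 within plate B, 11 in the fit of the 16 sorafenib and alone libraries only) and 1 to 15 with 1 library left out. Of the 13 genes, 13 were shared with DESeq2, 2 with plate A, 3 with plate B and 5 with the 16 libraries; the lowest counts were 1 without the plate B library of sorafenib with hydroxychloroquine, 8 without the plate A library of sorafenib with the Vps34 inhibitor, and 6 to 8 without any of 5 alone libraries. With hydroxychloroquine the 24 calls became 51 with DESeq2, 13 without the replicate block (plate left out) and 5 to 25 with 1 library left out. With the Vps34 inhibitor the 13 calls became 0 in the fit of the 16 sorafenib and alone libraries only (627 at an unadjusted p under 0.05). The 3 differences between autophagy inhibitors became 14 with DESeq2 and 1 to 11 with 1 library left out. Against the other RAF inhibitors the 473 calls became 87 within plate A, 67 within plate B, 223 to 312 with 1 library left out, and 197, 985 and 90 against Dabrafenib, RAF709 and PLX8394. Against the MEK inhibitors the 1931 calls became 848 within plate A, 671 within plate B and 1211 to 1463 with 1 library left out. The 5 differences between lines became 22 with DESeq2, 3 with no filter and 0 to 4 with 1 library left out. ERK targets called higher numbered 2 within plate A, 3 within plate B, 2 against Dabrafenib and 0 against PLX8394 in place of 5, and 5 within plate A in place of 9 against the MEK inhibitors. Fits within a plate hold fewer libraries; the cause of the other shifts was not tested. Without the block there were 9 calls against alone, 369 against the other RAF inhibitors and 1722 against the MEK inhibitors. The split of higher and lower calls moved with DESeq2 to 1026 and 1076 against the MEK inhibitors (1094 and 837 with edgeR), and to 328 and 285, or 262 and 187 with its size factors alone, against the other RAF inhibitors (304 and 169). Reversed were DUSP6 within plate A (-0.11) and ELP2 within plate A (-0.028). With 1 library left out log2 differences ranged from -0.0891 to 0.00427 for PHLDA1, -0.0835 to 0.14 for DUSP6, -0.37 to 0.067 for CCND1, -0.44 to 0.58 for ETV4 and -0.13 to 1.62 for ELP2. Over single genes 382 values kept direction and call, 115 lost the call and 9 reversed.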
